A study of Homo sapiens and Mus musculus with 24 samples.

Results

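LNCaP cells grown with fibroblasts labelled CRPCCAFs were compared with LNCaP cells grown with fibroblasts labelled CCAFs, both under enzalutamide. The libraries of the comparison are taken by their labels, not by measured values: it holds the 4 libraries with 1 µM enzalutamide and a coculture, 2 with CRPCCAFs and 2 with CCAFs, out of 12 LNCaP libraries and 24 libraries in the whole series. LNCaP cells are a human prostate cancer line of epithelial origin that responds to androgen; the labels record their genotype as WT, and every library was collected at day 7. Beside these stand the same cocultures in the vehicle DMSO (2 libraries each) and LNCaP cells grown alone in DMSO or in 1 µM enzalutamide (2 libraries each). The labels do not spell out CCAF or CRPCCAF and do not tie the cocultures to the fibroblast samples of the series, which were isolated from PtenPC-/-; Trp53PC-/- mice, some of them ADT mice. Titles of CCAF cocultures hold p53, those of CRPCCAF cocultures hold p53_ca, and fibroblast titles include p53 and ca. Whether these names mark the same fibroblasts is not stated. The labels also do not say whether the cells were in contact or how LNCaP RNA was kept apart from fibroblast RNA. Nor do they say whether the 2 biological replicates came from separate fibroblast isolations, so p-values measure the spread between these libraries. Expression is given as RPKM, a read density scaled to gene length and to the depth of the library, for 44564 gene names once 27 date-like names were dropped, and 16042 of these reached 1 RPKM in at least 2 of the 12 libraries and were tested.

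Enzalutamide is an antiandrogen that blocks the transcription of androgen targets such as the kallikrein KLK3, which encodes prostate-specific antigen. Growth of LNCaP cells depends on androgen signalling, so its blockade lowers the genes of DNA replication and mitosis. Cancer-associated fibroblasts are stromal cells that release growth factors, chemokines and matrix, and act on tumour cells through receptors for these factors.

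The LNCaP identity of the 4 libraries was checked first. KRT8 and KRT18, keratins of luminal epithelium, stood at 282 to 354 and 258 to 292 RPKM, and EPCAM at 50.3 to 59.8. Of 18 luminal markers, 17 were at 1 RPKM or more in each CRPCCAF library and 18 in each CCAF library. Reads per library, recovered from the steps of the RPKM values, ran from 17850431 to 20177106 in these 4 and up to 22187880 in the 12 LNCaP libraries.

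Markers of fibroblasts were low but not absent. Of 27 fibroblast and matrix markers, 16 were below the minimum, among them COL1A2, DCN, POSTN, PDGFRA and FAP, and none of the 16 passed 0.556 RPKM in any of the 4 libraries. COL1A2 and POSTN were at 0 in all 4 libraries. The summed level of the 27 was 293.6 and 285.0 RPKM with CRPCCAFs against 141.1 and 141.3 with CCAFs under enzalutamide. In LNCaP cells grown alone under enzalutamide the same sum was 151.5 and 153 RPKM. The largest part of the sum with CRPCCAFs was FN1, fibronectin, which read 187 and 179 RPKM with CRPCCAFs and 56.4 and 56.2 with CCAFs. LNCaP cells alone held 39.3 RPKM of FN1 in DMSO and 50.3 in enzalutamide. Of the 11 markers tested, 8 were called higher with CRPCCAFs and 0 lower, with a median change of 0.46 on the log2 scale, and COL1A1, the alpha 1 chain of collagen I, rose from 7.34 ± 0.38 to 12.4 ± 0.24 RPKM (SD, n = 2). That count fell to between 4 and 5 without CRPCCAF replicate 1, CRPCCAF replicate 2 or CCAF replicate 1. At 1 RPKM or more stood 10 of the 27 fibroblast and matrix markers in each CRPCCAF library and 7 in each CCAF library. The count and median of the 11 tested may thus in part be set by the minimum. Of 16 leukocyte and endothelial markers, 14 were below the minimum. CD68, a lysosomal glycoprotein of macrophages, rose from 6.26 and 6.64 to 22.3 and 21.5 RPKM, and VWF fell from 3.83 and 4.22 to 1.202 and 1.11 RPKM, while PTPRC was at 0 in all 4 libraries. Their part in the results below was not tested.

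The choice of fibroblast went with a broad difference in LNCaP expression under enzalutamide. Genes of DNA replication, mitosis, ribosome production and the kallikreins were lower with CRPCCAFs. Most tested genes of NF-kB signalling, the immediate early response, and hypoxia and glycolysis were higher, as were single genes such as CYP26A1, IGFBP5 and IGFBP3. Several NF-kB genes and some immediate early genes reached the minimum level only where they were high, so the results for those lists are in part set by it. A linear model in limma on log2(RPKM + 1) called 5197 of 16042 genes at an adjusted p under 0.05, which is 32.4%. Of these 2226 (13.9%) were higher and 2971 (18.5%) lower with CRPCCAFs. Changes of at least 1 on the log2 scale were found for 246 of the higher genes and 170 of the lower ones, and changes of at least 2 for 36 and 3. The median change over all genes was -0.02. With 2 libraries a group, the libraries of the groups did not overlap for 66.9% of all genes (30.1% higher and 36.7% lower), so a lack of overlap alone says little. Most genes named for a change were chosen with libraries apart, and their lack of overlap is a description. Counts of list members called are to be read against the 13.9% of all genes called higher and the 18.5% called lower.

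**Figure D1:**
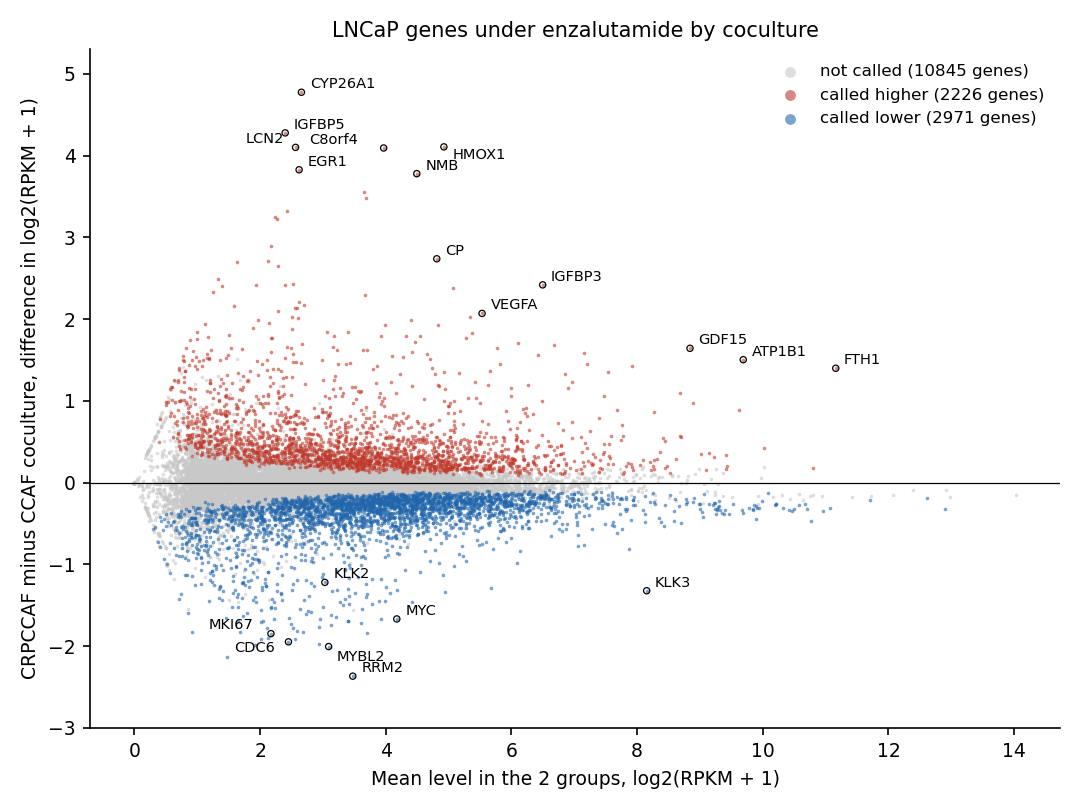
Change of each of the 16042 genes tested between CRPCCAF and CCAF coculture under enzalutamide (vertical axis, difference in log2(RPKM + 1)) against its mean level in the groups compared (horizontal axis, log2(RPKM + 1)). Red points are the 2226 genes called higher, blue points the 2971 called lower and grey points the rest. CYP26A1, IGFBP5, LCN2, HMOX1, C8orf4 and EGR1 lie highest, and RRM2 and MYBL2 lie lowest among the named genes.

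Androgen targets came first, since the drug acts on androgen signalling. KLK3 was at 178 and 179.7 RPKM with CRPCCAFs and at 444 and 454 with CCAFs under enzalutamide. The libraries of the groups lay far apart, and the fall was 2.51-fold (log2 change -1.32, SE 0.05, adjusted p = 1.49e-07 in limma). KLK2, a kallikrein that activates the KLK3 protein, was at 4.50 and 4.20 against 10.85 and 12.1 RPKM, a 2.64-fold fall. KLK15 and KLK4 also fell, by 0.71 and 0.46 on the log2 scale. All 4 kallikreins tested were thus called lower, where 18.5% of all genes were. Under DMSO, where 13.4% of all genes were called (7.03% higher and 6.41% lower), none of the 4 was called, and KLK3 stood at 1988 ± 60.9 RPKM (SD, n = 2) with CRPCCAFs and 1855 ± 8.85 (SD, n = 2) with CCAFs. The level of KLK3 with CRPCCAFs under enzalutamide lay between that with CCAFs and that of LNCaP cells alone, 58.5 RPKM.

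Beyond the kallikreins, androgen-activated targets split. Of 34 tested, 17 were called lower and 8 higher with CRPCCAFs, with a median change of -0.19. CENPN, a centromere protein that androgen induces in LNCaP cells, fell from 13.6 and 12.45 to 4.45 and 4.69 RPKM. KCNN2, a calcium-activated potassium channel, fell from 5.73 and 5.94 to 2.76 and 2.17 RPKM. FKBP5, a chaperone of steroid receptors, fell 1.59-fold (adjusted p = 9.01e-05 in limma).

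The 8 that rose included 5 with a log2 change above 1. TMPRSS2, a membrane serine protease, was at 73.1 and 73.96 RPKM with CRPCCAFs and at 32.0 and 31.1 with CCAFs. PMEPA1, which also belongs to the TGF-beta response, was at 31.2 and 32.6 against 10.6 and 10.1 RPKM, a 3.08-fold rise. NDRG1, which is also induced by hypoxia, was at 179 and 177 against 77.8 and 80.7 RPKM. HERC3, a ubiquitin ligase, and the cold-sensing channel TRPM8 rose by 1.06 and 1.05 on the log2 scale. In all 5 of these genes the libraries of the groups did not overlap, which held for 66.9% of all genes.

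Transcription factors of prostate cancer cells also differed. ETV1, an ETS factor overexpressed in LNCaP, fell 1.93-fold, from 21.6 and 20.9 to 10.8 and 11.3 RPKM. HOXB13, a prostate homeobox factor, rose 1.18-fold. Of 9 genes that androgen represses, 1 was called higher, CAMK2N1 at 0.28 on the log2 scale, and 3 lower. The UGT2B enzymes, which inactivate androgens by glucuronidation and share long stretches of sequence, so that the split of reads among them is uncertain, were lower in 3 of 3 tested. UGT2B17 fell from 81.1 and 80.5 to 63.8 and 64.0 RPKM. Of 10 genes of steroid synthesis and metabolism, 2 rose and 1 fell, and SRD5A3, a polyprenol and steroid reductase, rose 2.74-fold from 15.0 and 15.9 to 43.25 and 41.5 RPKM.

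Cell cycle genes came next. RRM2, the small subunit of ribonucleotide reductase, which makes deoxynucleotides, was at 3.61 and 4.18 RPKM with CRPCCAFs and at 25.1 and 23.4 with CCAFs, a 6.22-fold fall (log2 change -2.37, SE 0.06, adjusted p = 1.59e-08 in limma). CDC6, which loads the MCM helicase on replication origins, was at 1.67 and 1.90 against 10.05 and 9.42 RPKM. MCM4, a helicase subunit, was at 6.94 and 6.87 against 20.5 and 19.3 RPKM. In each the libraries with CRPCCAFs lay below both libraries with CCAFs, as they did for 36.7% of all genes. Of 38 genes of DNA replication and nucleotide synthesis tested, 37 were called lower and 0 higher, with a median change of -1.05. The exception was CCNE1, cyclin E1, which drives entry into S phase and stood at 6.37 and 6.37 against 6.02 and 6.79 RPKM.

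All 40 mitosis genes were called lower, with a median change of -1.38. MKI67, the Ki-67 proliferation antigen, was at 1.34 and 1.41 RPKM with CRPCCAFs and at 7.635 and 7.46 with CCAFs, a 5.49-fold fall (log2 change -1.85, SE 0.07, adjusted p = 1.36e-07 in limma). MYBL2, a transcription factor of the complex that switches on mitotic genes, was at 3.20 and 3.30 against 16.2 and 16.0 RPKM. AURKB, the Aurora B kinase, was at 1.36 and 1.14 against 6.48 and 8.43 RPKM. CDK1, the mitotic kinase, and NUSAP1, a spindle protein, fell by 1.66 and 1.84 on the log2 scale. ESCO2, which acetylates cohesin in S phase, fell 7.22-fold to 0.896 ± 0.24 RPKM. In bulk RNA, fewer cells in cycle and less of each transcript per cell cannot be told apart.

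Under DMSO the same lists moved less far. Of the 38 replication genes 22 were called lower, with a median of -0.28, and of the 40 mitosis genes 23, with a median of -0.29. The difference between the drug conditions was itself called for 32 of the 38 and for 39 of the 40, all lower, where 4.07% of all genes were called lower in that test. The median level of the replication list, on the log2(RPKM + 1) scale, was 2.40 and 2.38 in the CRPCCAF libraries under enzalutamide, 3.48 and 3.47 in the CCAF libraries, and 2.62 and 2.71 in LNCaP cells alone. For the mitosis list it was 1.92 and 2.02 with CRPCCAFs, 3.46 and 3.42 with CCAFs, and 2.70 and 2.60 alone. CCAF libraries were thus the highest of the enzalutamide libraries for both lists, and CRPCCAF libraries the lowest.

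**Figure D2:**
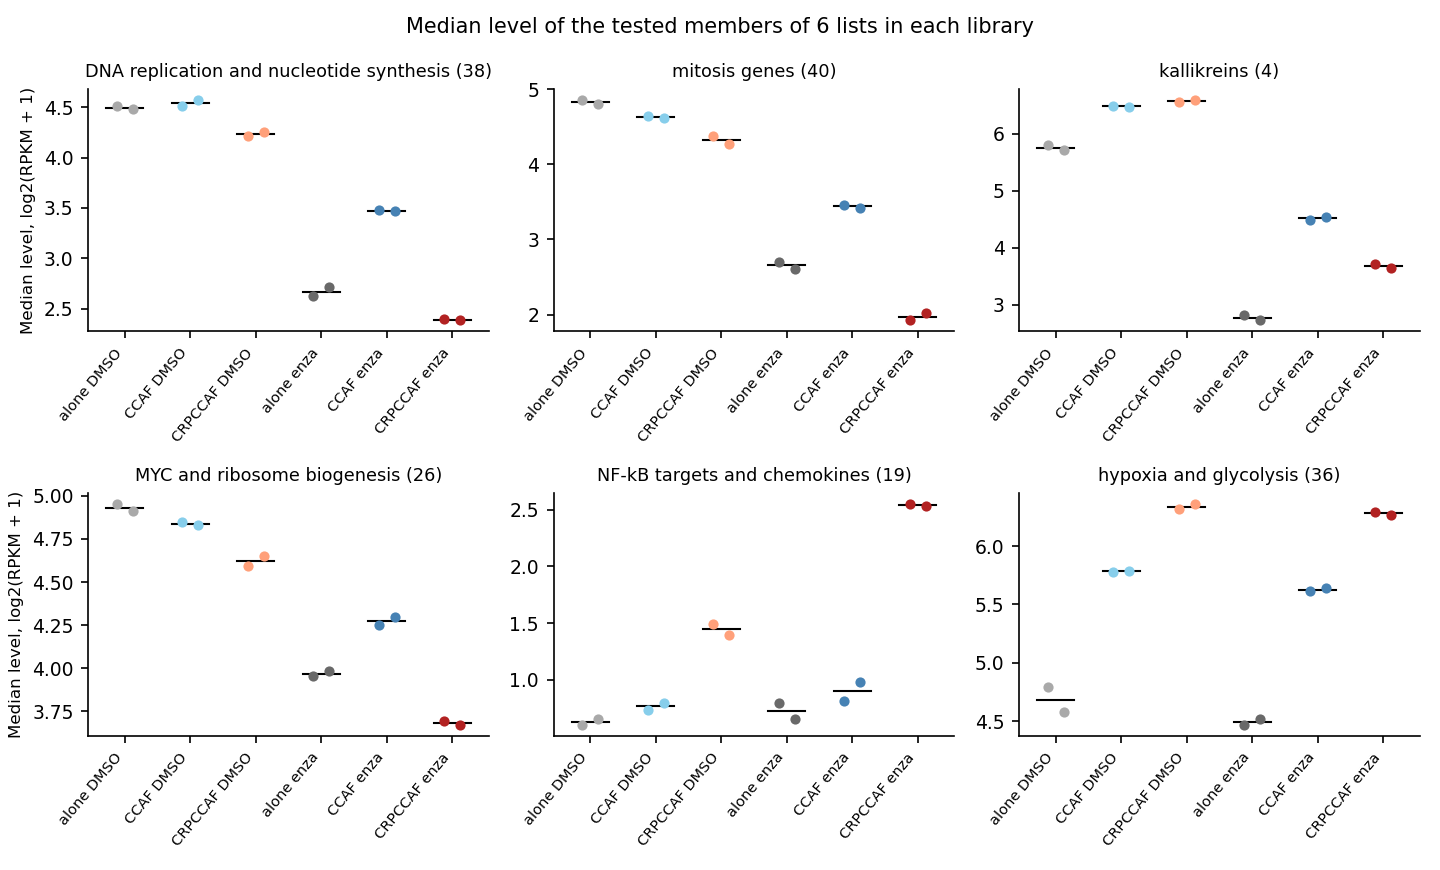
Median level of the tested members of 6 lists (vertical axis, log2(RPKM + 1); each panel has its own scale) in the 12 LNCaP libraries, with points for libraries and lines for group means. For the replication list the CRPCCAF libraries under enzalutamide (2.40 and 2.38) lie below those of LNCaP cells alone (2.62 and 2.71), and the CCAF libraries (3.48 and 3.47) lie above both.

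Promoters of 4 genes are shown, because RRM2, CDC6 and MKI67 are among the largest falls and KLK3 is the best known androgen target. E2F factors, which switch on replication genes, recognise TTTGGCG or TTTCGCG, the CHR element of mitotic genes reads TTTGAA, the CCAAT box reads CCAAT, and an arm of the androgen response element reads AGAACA. Each is the 250 bases before the start annotated by RefSeq on build GRCh38.p14, 5′ to 3′ on the strand of the gene, with capitals for any E2F, CHR or CCAAT letters on either strand, and in KLK3 for AGAACA. RRM2 lies on the plus strand at chr2:10122489-10122738, CDC6 on the plus strand at chr17:40287629-40287878, MKI67 on the minus strand at chr10:128126424-128126673, and KLK3 on the plus strand at chr19:50854665-50854914.
RRM2: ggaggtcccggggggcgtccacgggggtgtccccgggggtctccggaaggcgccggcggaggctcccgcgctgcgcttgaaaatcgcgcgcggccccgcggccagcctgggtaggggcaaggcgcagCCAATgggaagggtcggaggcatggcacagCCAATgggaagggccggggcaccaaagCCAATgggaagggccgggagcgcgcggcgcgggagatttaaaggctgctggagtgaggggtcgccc
CDC6: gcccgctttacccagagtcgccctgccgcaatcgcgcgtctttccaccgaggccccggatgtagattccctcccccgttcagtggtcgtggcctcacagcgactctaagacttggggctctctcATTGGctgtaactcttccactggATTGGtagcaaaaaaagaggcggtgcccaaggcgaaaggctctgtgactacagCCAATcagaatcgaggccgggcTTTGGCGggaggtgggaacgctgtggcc
MKI67: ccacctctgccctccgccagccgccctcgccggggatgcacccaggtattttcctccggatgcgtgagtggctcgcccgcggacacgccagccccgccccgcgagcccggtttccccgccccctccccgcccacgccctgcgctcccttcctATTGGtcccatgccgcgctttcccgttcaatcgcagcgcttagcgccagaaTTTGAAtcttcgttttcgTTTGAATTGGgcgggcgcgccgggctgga
KLK3: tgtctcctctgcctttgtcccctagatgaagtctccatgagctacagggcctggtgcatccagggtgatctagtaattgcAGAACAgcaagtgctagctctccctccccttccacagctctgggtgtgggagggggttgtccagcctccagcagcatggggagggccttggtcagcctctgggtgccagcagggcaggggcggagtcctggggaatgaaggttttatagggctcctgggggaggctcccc

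RRM2 holds 3 CCAAT boxes, the last ending at -62 from the start. CDC6 holds an E2F match from -28 to -22 and 3 CCAAT boxes, of which those starting at -126 and -103 read on the other strand as ATTGG. MKI67 holds CHR matches from -47 to -42 and from -29 to -24, and the second shares 1 base with a CCAAT box on the other strand. KLK3 holds AGAACA from -170 to -165. RefSeq promoters were matched for 33 of the 38 replication genes, 33 of the 40 mitosis genes and 10383 of the 16042 genes tested. An E2F match was found in 27.3% of the replication promoters, 3.03% of the mitosis promoters and 4.52% of all tested. A CHR match was found in 3.03% of the replication promoters, 54.5% of the mitosis promoters and 8.19% of all tested. CCAAT boxes were found in 51.5%, 75.8% and 35.8%. The AGAACA letters were found in 7.38% of all tested promoters and in 7.32% of those of genes called lower. Beyond the kallikreins, 1 of 21 matched promoters of androgen-activated targets held them (4.76%). Of the 4 kallikreins, 1 held them, which was KLK3. A match is a description of the letters and was not tied to binding in these cells.

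MYC, the growth-promoting transcription factor, was at 8.93 and 9.335 RPKM with CRPCCAFs and at 31.55 and 30.9 with CCAFs, a 3.42-fold fall (log2 change -1.67, SE 0.04, adjusted p = 1.40e-08 in limma). It stood at 16.8 RPKM in LNCaP cells alone under enzalutamide. All 26 genes of the MYC and ribosome biogenesis list were called lower, with a median of -0.53, and NOP56, a nucleolar protein that guides ribosomal RNA modification, fell 1.89-fold. Under DMSO 16 of the 26 were lower, with a median of -0.25. Among 36 respiratory chain subunits 14 were lower and 0 higher, with a median of -0.14, and NDUFB10 of complex I fell from 148 and 161 to 107 and 112 RPKM. That count was 8 and 9 without CRPCCAF replicate 1 and without CCAF replicate 2.

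Inhibitors of the cell cycle were also measured. CDKN1A, the p21 inhibitor of cyclin-dependent kinases, was at 189 and 190.4 RPKM with CRPCCAFs and at 78.2 and 81.7 with CCAFs, a 2.37-fold rise (log2 change 1.24, SE 0.04, adjusted p = 3.58e-08 in limma). CDKN1B, the p27 inhibitor, was at 92.05 and 95.6 against 42.5 and 40.6 RPKM, a 2.26-fold rise. CDKN2C, the p18 inhibitor, went the other way and fell 2.42-fold. Of the 18 inhibitors and G1 cyclins tested, 6 rose and 5 fell, with a median of 0.09. Of 23 targets of p53, 8 rose and 1 fell, and those with a log2 change above 1 were CDKN1A, the stress cytokine GDF15 and the BH3-only protein BBC3. GDF15 was at 812 and 807 RPKM against 259.6 and 258, a 3.13-fold rise. The median of the p53 list was 0.11. Of 21 apoptosis regulators 8 rose and 0 fell, with a median of 0.14, led by BIRC3, a ubiquitin ligase that NF-kB induces, BMF and BBC3. BMF, a BH3-only protein, was at 47.45 and 47.1 RPKM against 17.9 and 18.0. The count of apoptosis regulators was 5 without CRPCCAF replicate 1 or CCAF replicate 2.

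**Figure D3:**
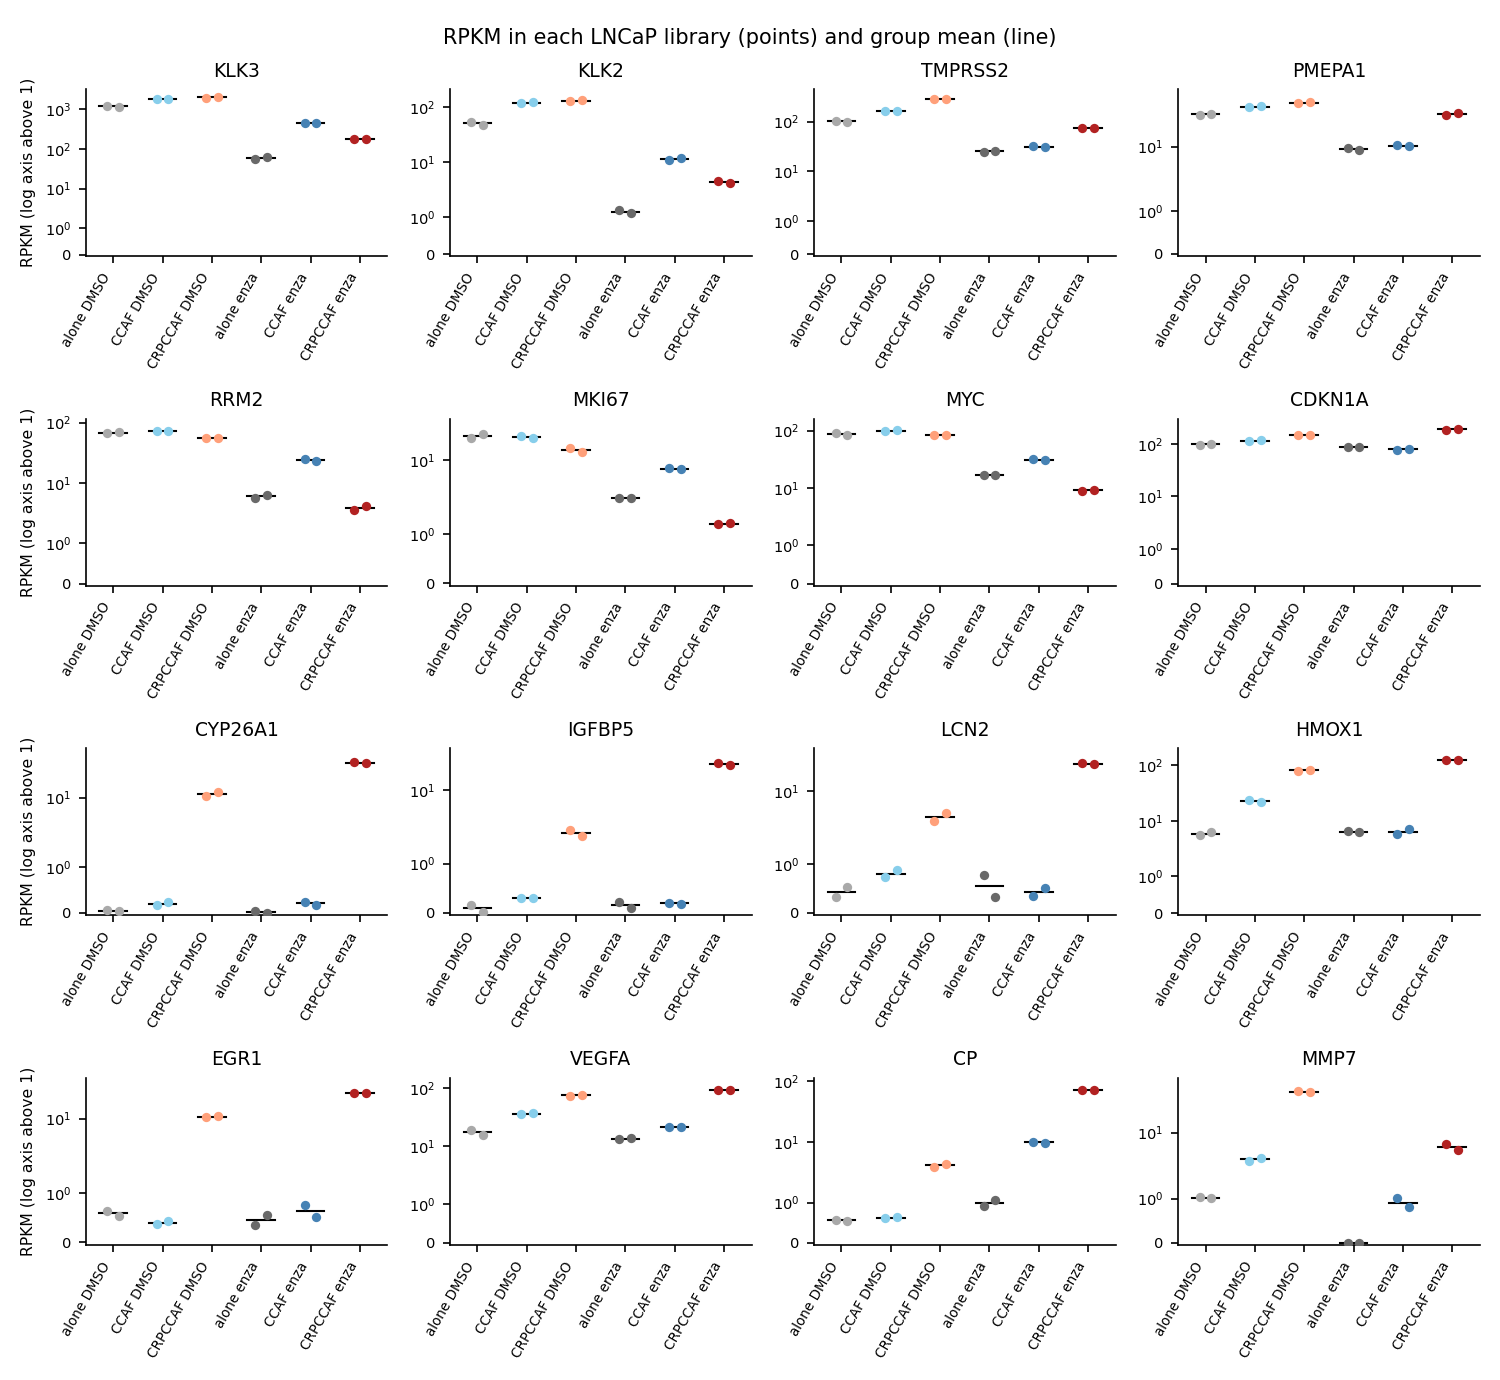
RPKM of 16 named genes in each of the 12 LNCaP libraries (points; the axis is logarithmic above 1 RPKM and linear below), with group means as lines. KLK3, KLK2, RRM2, MKI67 and MYC are lower with CRPCCAFs (red) than with CCAFs (blue) under enzalutamide, and the other 11 genes are higher.

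Among all genes tested, the largest rise on the log2 scale was in CYP26A1, the enzyme that breaks down retinoic acid and is itself induced by it. CYP26A1 was at 32.3 and 31.7 RPKM with CRPCCAFs and at 0.239 and 0.173 with CCAFs, which rest on 1431 and 1544 reads against 12 and 8. The rise was 155-fold (log2 change 4.77, SE 0.09, adjusted p = 7.96e-09 in limma). DHRS3, a retinal reductase, was at 76.35 and 74.2 against 13.0 and 14.2 RPKM. ALDH1A3, which makes retinoic acid from retinal, was at 75.8 and 78.9 against 20.9 and 21.1 RPKM. Of 15 genes of retinoid metabolism and receptors tested, 5 rose and 2 fell, with a median of 0.13. CYP26A1 and DHRS3 were also called higher under DMSO, by 3.35 and 1.66 on the log2 scale.

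Proteins that bind insulin-like growth factors came next. IGFBP5 was at 22.9 and 21.5 RPKM with CRPCCAFs and at 0.206 and 0.189 with CCAFs, a 112.5-fold rise (log2 change 4.28, SE 0.11, adjusted p = 1.40e-08 in limma). IGFBP3 was at 206 and 209 against 38.8 and 37.4 RPKM, a 5.46-fold rise. IGFBP2 went down, from 29.9 and 26.9 to 19.25 and 20.1 RPKM. Of 8 genes of this axis tested, 3 rose and 2 fell. In LNCaP cells alone under the drug, IGFBP3 was at 157 RPKM and IGFBP5 at 0.158 RPKM.

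NF-kB is a family of transcription factors that inflammatory cytokines switch on, and its targets include chemokines and its own inhibitors. LCN2, lipocalin 2, an iron-siderophore carrier, was at 23.75 and 23.2 RPKM with CRPCCAFs and at 0.351 and 0.507 with CCAFs, a 54.7-fold rise (log2 change 4.10, SE 0.15, adjusted p = 9.77e-08 in limma). NFKBIZ, a nuclear cofactor, was at 27.6 and 26.7 against 4.655 and 4.79 RPKM. NFKBIA, which holds NF-kB in the cytoplasm, was at 78.4 and 81.6 against 30.0 and 31.0 RPKM. In all 3 genes the libraries of the groups did not overlap, which held for 66.9% of all genes.

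Some secreted members also rose. CXCL8, the neutrophil chemokine interleukin-8, was at 5.115 and 4.805 RPKM with CRPCCAFs, from 156 and 161 reads, whereas the CCAF libraries held 1 and 3 reads. CCL20, a chemokine for CCR6-bearing cells, was at 4.58 and 6.165 against 0.5875 and 0.2545 RPKM, and IL1B, interleukin-1 beta, at 4.85 and 4.69 against 0.7595 and 0.966 RPKM. Of 19 NF-kB targets tested, 17 rose and 1 fell, with a median of 1.36, and 12 of the 31 listed were below the minimum. At 1 RPKM or more stood 20 and 19 of the 31 in the CRPCCAF libraries but 9 in each CCAF library, so several members passed the minimum only where they were high, and the count and median are in part set by it. The secreted members CXCL1, CXCL2, CXCL3, CXCL5, IL6 and IL1A were below the minimum, at 0 to 0.139 RPKM in the 4 libraries. The member that fell was NFKB1, the p105 subunit, by 0.32 on the log2 scale. Under DMSO 11 rose and 1 fell, with a median of 0.59. The difference between drug conditions was called for 10 of the 19, all higher, where 2.38% of all genes were called higher. With CRPCCAFs under DMSO, 13 and 14 of the 31 were at 1 RPKM or more. The minimum thus also sets the count of 10 in part, and that count is a description. TRAF5, an adaptor of tumour necrosis factor receptors, is named for its large difference between drug conditions, which is given as a description. It was at 8.115 and 7.645 RPKM with CRPCCAFs against 0.810 and 0.516 with CCAFs under enzalutamide, and at means of 3.47 and 1.55 RPKM under DMSO.

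Immediate early genes, the first to respond to growth factors and stress, also rose. EGR1 was at 22.1 and 22.1 RPKM with CRPCCAFs and at 0.757 and 0.513 with CCAFs, a 34.85-fold rise (log2 change 3.83, SE 0.10, adjusted p = 1.40e-08 in limma). FOS, a subunit of AP-1, was at 12.6 and 12.9 against 2.04 and 2.06 RPKM, and ATF3, a stress-induced factor, at 28.0 and 28.6 against 8.96 and 9.14 RPKM. Of 21 such genes and feedback inhibitors of ERK signalling tested, 19 rose and 1 fell, with a median of 0.72. All 21 were at 1 RPKM or more with CRPCCAFs, and 17 and 18 in the CCAF libraries. Some members, such as EGR1, passed the minimum only where they were high, so the count and median are in part set by it. The fall was in SPRY1, a feedback inhibitor, at 0.47 on the log2 scale, and its call was lost without CRPCCAF replicate 1, CRPCCAF replicate 2 or CCAF replicate 2 (adjusted p = 0.0507, 0.0747 and 0.0947 in limma). Under DMSO 14 rose and 0 fell, with a median of 0.65.

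The EGF receptor family was measured next. Of 9 members, ligands and inhibitors tested, 3 rose and 1 fell, and EGFR was at 18.6 and 17.2 RPKM with CRPCCAFs and at 9.43 and 9.32 with CCAFs. ERRFI1, an inhibitor of EGFR that signalling through it induces, rose 2.36-fold. Of 14 genes linked to YAP, the coactivator of the Hippo pathway, 7 rose and 2 fell, with a median of 0.25. CYR61, a matrix signalling protein, was at 15.8 and 15.1 against 6.035 and 6.56 RPKM. CTGF, of the same family, was at 1.07 and 1.02 RPKM from 45 and 47 reads, against 2 and 1 reads with CCAFs. For both, the rise on the log2(RPKM + 1) scale was larger under DMSO, at 2.04 and 2.02 against 1.17 and 0.99 under enzalutamide. The difference was called for both. CTGF had 148 and 146 reads against 3 and 5 under DMSO, so a smaller rise as a ratio under the drug was not shown.

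Hypoxia and glycolysis genes were the next group to move together. VEGFA, the vascular growth factor, was at 94.1 and 93.5 RPKM with CRPCCAFs and at 21.6 and 21.6 with CCAFs, a 4.345-fold rise (log2 change 2.07, SE 0.07, adjusted p = 5.98e-08 in limma). PLOD2, a collagen lysine hydroxylase, was at 21.5 and 20.3 against 6.165 and 6.07 RPKM. DDIT4, an inhibitor of mTORC1, was at 299 and 294 against 114.5 and 116.2 RPKM. Of 36 tested, 31 rose and 0 fell, with a median of 0.63. The 5 that were not called were BNIP3, TPI1, SLC2A1, HK1 and CA12, at -0.04 to 0.17 on the log2 scale. Glycolytic enzymes rose by less than VEGFA: ALDOA, aldolase, 1.85-fold and LDHA, lactate dehydrogenase, 1.26-fold. Under DMSO 26 rose and 0 fell, with a median of 0.36. The median level of this list was 6.29 and 6.27 with CRPCCAFs and 5.62 and 5.64 with CCAFs under enzalutamide, above the 4.47 and 4.52 of LNCaP cells alone.

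Heme and iron genes held some of the highest levels. HMOX1, heme oxygenase, which frees iron from heme, was at 124 and 125.5 RPKM with CRPCCAFs and at 5.69 and 6.98 with CCAFs, a 19.7-fold rise (log2 change 4.11, SE 0.08, adjusted p = 8.03e-09 in limma). CP, ceruloplasmin, a ferroxidase, was at 71.5 and 71.5 against 10.1 and 9.68 RPKM. FTH1, the ferritin heavy chain, was at 3683 and 3751 against 1386 and 1434 RPKM, although copies of this gene elsewhere in the genome make its count uncertain. Of 19 iron genes tested, 5 rose and 5 fell, with a median of 0.00.

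HMOX1 is also a target of NRF2, the oxidative stress factor. Of 25 genes of that list, 12 rose and 5 fell, with a median of 0.05, and NQO1, a reductase often read as a marker of NRF2, was not called at 62.1 and 64.3 against 62.9 and 64.1 RPKM. AKR1C1, a reductase of steroids and aldehydes, was at 10.6 and 11.7 against 0.861 and 1.01 RPKM. It shares most of its sequence with other AKR1C genes, so reads among them may be split wrongly. Of 14 polyamine enzymes 6 rose and 2 fell. AOC1, which oxidises diamines, was at 25.7 and 25.7 against 15.9 and 15.35 RPKM, and its call was lost with a pseudocount of 0.1 (adjusted p = 0.0593 in limma). SRM, spermidine synthase, fell 1.67-fold.

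TGF-beta and BMP response genes rose in 12 and fell in 3 of 24 tested, with a median of 0.21. SMAD3, a signal transducer of TGF-beta, was at 18.9 and 18.9 RPKM with CRPCCAFs and at 4.67 and 4.47 with CCAFs, a 4.14-fold rise. BAMBI, a decoy receptor, was at 237 and 248 against 86.7 and 89.5 RPKM. GDF15 and PMEPA1, described above, also belong to this list. Without CCAF replicate 2 the count was 9 of 24. Of 21 Wnt targets and components 5 rose and 3 fell, with a median of 0.01, and AXIN2, a target often used as a readout of the pathway, was not called at 2.98 and 2.79 against 2.85 and 2.21 RPKM. Among those that rose, C8orf4 was at 63.95 and 63.1 against 2.63 and 2.94 RPKM, a 22.8-fold rise. MMP7, the protease matrilysin, was at 6.71 and 5.47 against 1.01 and 0.81 RPKM, and at means of 41.8 and 3.94 RPKM under DMSO. The count for the Wnt list was 5 without CRPCCAF replicate 1 or either CCAF replicate.

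Interferon and antigen genes were mixed. Of 27 interferon response genes 8 rose and 3 fell, with a median of 0.03, where 32.4% of all genes were called, and OAS3, an antiviral nucleotide synthetase, fell 2.42-fold. Between 5 and 7 of the 27 were called without CRPCCAF replicate 1, CRPCCAF replicate 2 or CCAF replicate 2. Of 13 genes of MHC class I and antigen processing 6 rose and 2 fell. HLA-B, a class I heavy chain, was at 107 and 109 against 59.2 and 60.1 RPKM, with reads that its relatives may share.

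In lipid metabolism, 6 of 31 cholesterol and fatty acid genes rose and 13 fell, with a median of -0.10. SCD, which desaturates stearate, rose 1.63-fold, from 170.3 and 168 to 278 and 273 RPKM. Of 32 genes of the unfolded protein and ATF4 response 10 rose and 7 fell, with a median of 0.05. Among 5 genes of the sodium pump and its regulators, 2 rose and 1 fell. ATP1B1, the beta subunit that carries the pump to the membrane, was at 1394 and 1384 against 494 and 485 RPKM, a 2.84-fold rise.

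Lineage markers changed in part. Of 18 luminal markers 8 rose and 4 fell, with a median of 0.15, and ELF3, an epithelial ETS factor, was at 69.25 and 71.65 against 19.2 and 20.8 RPKM. Of 10 basal and mesenchymal markers tested 4 rose and 0 fell. LAMB3, a laminin chain of basement membrane, was at 10.8 and 11.4 against 1.155 and 1.41 RPKM, and VIM, vimentin, at 12.5 and 11.8 against 5.465 and 5.17 RPKM. KRT20, a keratin of intestinal and urothelial cells, was at 3.69 and 2.90 against 0.0822 and 0.148 RPKM under enzalutamide, and at means of 0.302 and 0.217 RPKM under DMSO. Of 17 neuroendocrine markers 2 were tested and 1 rose. Of 9 prostate long noncoding RNAs 2 rose and 4 fell, with a median of -0.17.

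Other genes among the largest rises belong to none of these groups. NMB, the peptide neuromedin B, was at 79.1 and 85.6 RPKM with CRPCCAFs and at 4.66 and 5.51 with CCAFs. AKAP12, a scaffold of protein kinase A, was at 13.5 and 13.7 against 0.523 and 0.5365 RPKM, a 25.6-fold rise. DIO3, the deiodinase that inactivates thyroid hormone, was at 11.5 and 11.04 against 0.824 and 0.484 RPKM, and PXDC1 at 16.1 and 15.9 against 0.676 and 0.733 RPKM. SDCBP2, syntenin-2, rose 15.7-fold, with reads that a transcript running through it from FKBP1A may share.

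**Figure D4:**
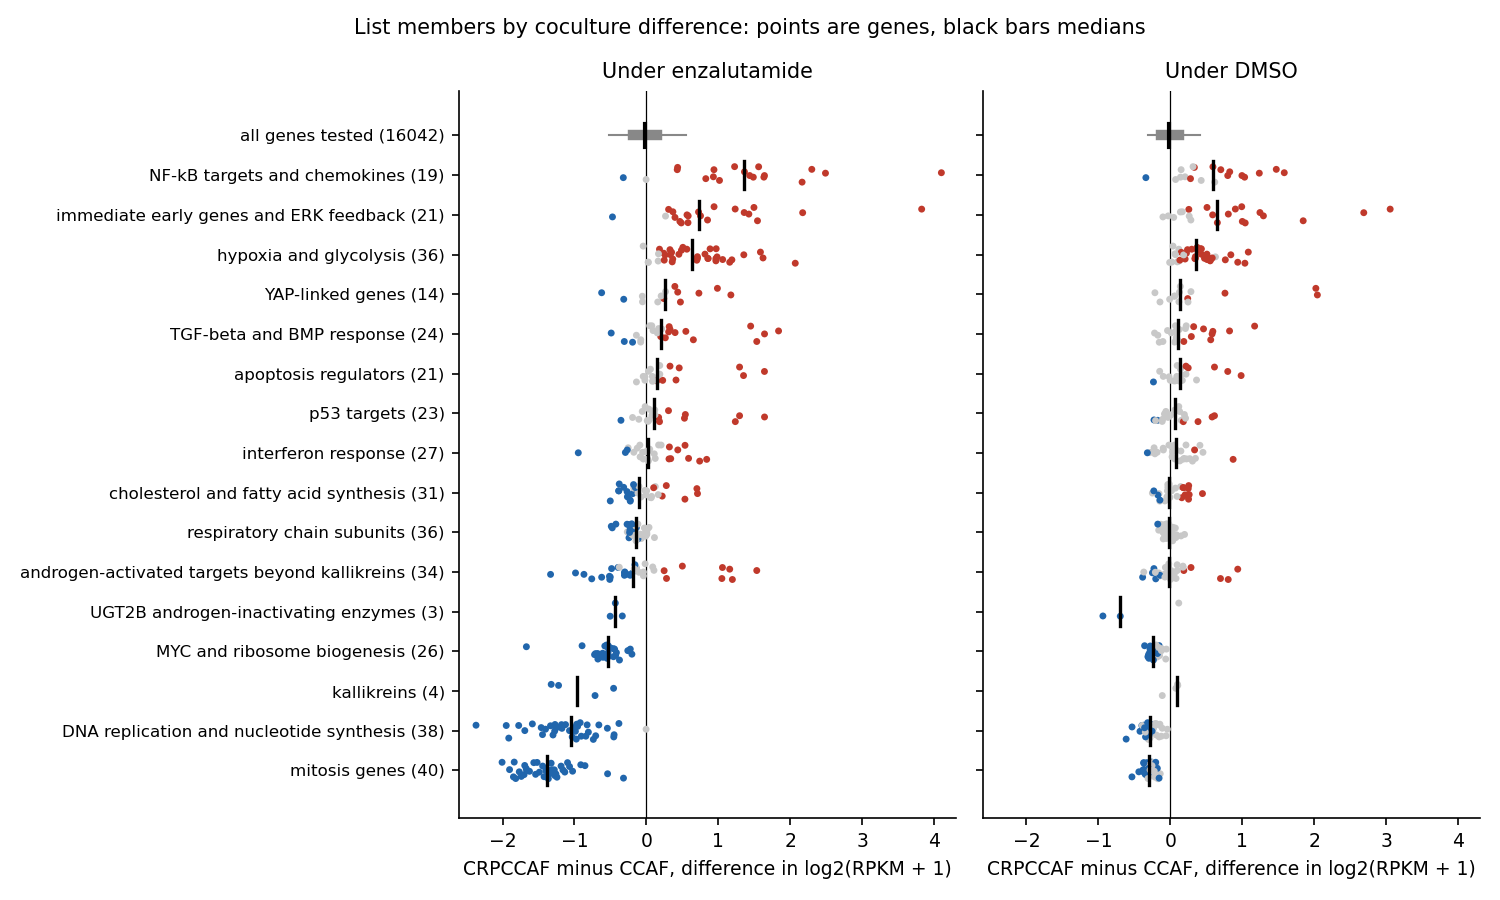
Difference between CRPCCAF and CCAF coculture (horizontal axis, in log2(RPKM + 1)) of the tested members of 16 lists under enzalutamide (left) and DMSO (right). Points are genes, red where called higher, blue where called lower and grey otherwise, black bars are list medians, and the grey bars for all 16042 genes span the middle 50% (thick) and 90% (thin). Replication and mitosis medians lie at -1.05 and -1.38 under enzalutamide against -0.28 and -0.29 under DMSO.

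The last question was how far the difference between the fibroblasts depended on the drug. Under DMSO 2156 genes were called, 1127 higher and 1029 lower with CRPCCAFs, with means from libraries that the enzalutamide comparison uses only for spread. That count was 1330 without CRPCCAF DMSO replicate 2, 945 without CCAF DMSO replicate 1 and 827 without CCAF DMSO replicate 2. Of the genes called higher, 875 were called higher in both conditions, which is 39.3% of the enzalutamide list and 77.6% of the DMSO list. Of those called lower, 776 were shared, 26.1% and 75.4% of the lists. Only 16 genes were called in opposite directions, 6 of them higher under enzalutamide and lower under DMSO. Changes of at least 1 on the log2 scale were seen in 89 of the higher and 11 of the lower genes under DMSO, against 246 and 170 under enzalutamide.

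The test of the difference between conditions called 1034 genes, 6.45% of those tested, 381 higher and 653 lower under enzalutamide. It called between 582 and 595 without CRPCCAF enzalutamide replicate 1, CCAF enzalutamide replicate 2, CCAF DMSO replicate 1 or CCAF DMSO replicate 2. Of the named genes, those whose rise was larger with the drug included IGFBP5, with 2.61 against 0.309 RPKM under DMSO and a difference of 2.82 on the log2 scale, LCN2 and HMOX1. Those whose fall was larger included RRM2 and MYC: MYC was at 83.2 against 99.9 RPKM under DMSO, where it fell by 0.26 on the log2 scale. KLK3 fell under enzalutamide and was not called under DMSO. C8orf4 and IGFBP3 rose in both conditions, by 4.17 and 2.65 on the log2 scale under DMSO, and the difference was not called for either (adjusted p = 0.789 and 0.164 in limma; SE of the difference 0.12 and 0.09). C8orf4 reads numbered 2106 and 2282 against 98 and 101 under enzalutamide, and 911 and 950 against 17 and 25 under DMSO. As a ratio of reads, the rise of C8orf4 was larger under DMSO. MMP7, CYR61, CTGF and JUN rose in both conditions and rose less under the drug on the log2(RPKM + 1) scale. For CTGF, with few reads in the CCAF libraries, a smaller rise as a ratio was not shown.

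**Figure D5:**
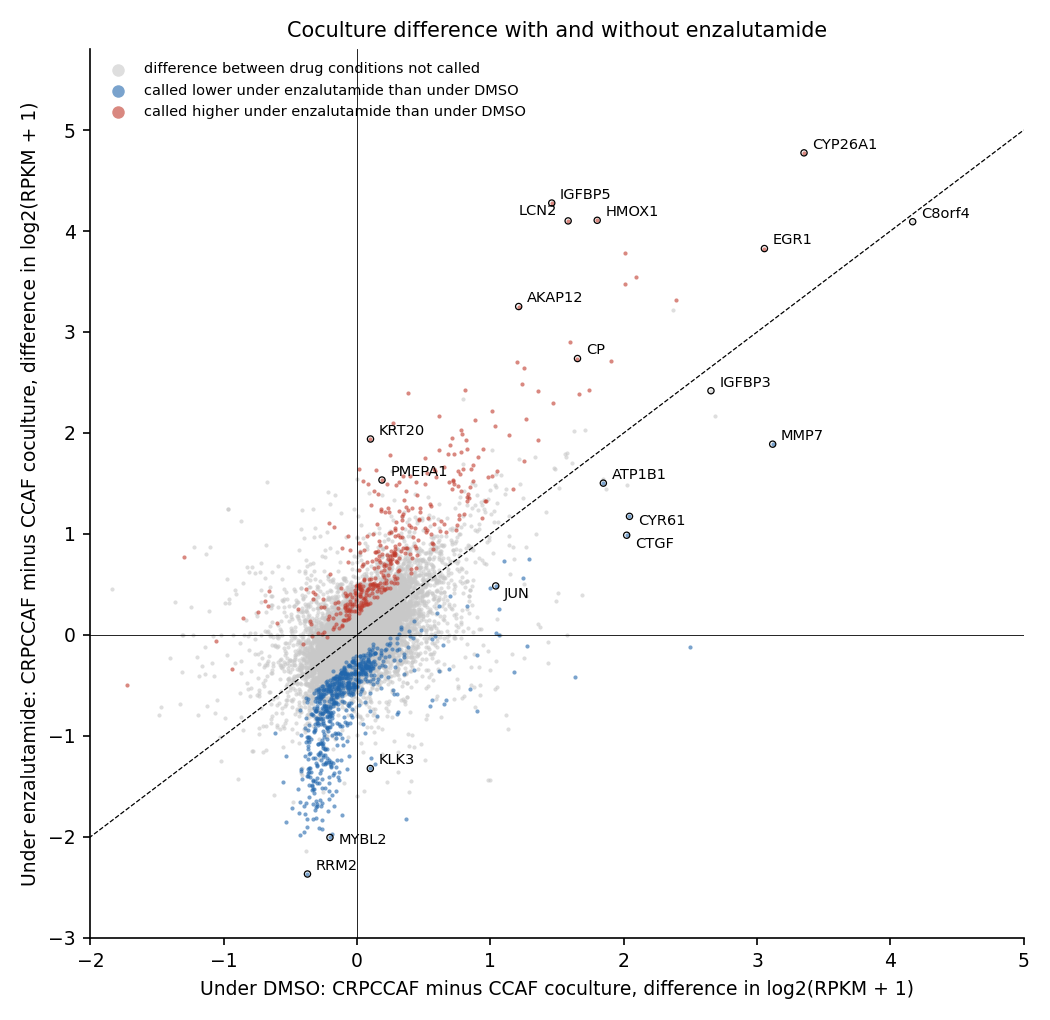
Difference between CRPCCAF and CCAF coculture under enzalutamide (vertical axis) against that under DMSO (horizontal axis), both in log2(RPKM + 1), for the 16042 genes tested; the dashed line marks equal differences. Red and blue points are the 381 and 653 genes whose difference was called higher or lower under enzalutamide than under DMSO. IGFBP5, LCN2 and HMOX1 lie far above the line, RRM2, MYBL2 and KLK3 below it at DMSO values near 0, and MMP7, CTGF and CYR61 below it at high DMSO values.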

How the data were processed

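RNA sequencing of 12 LNCaP libraries in 6 groups of 2 was used. The values are RPKM, deposited by the authors with 1 value per gene and library, per the file headers; they are not counts, so no count model was fitted as the main test. The submitters' processing notes name HISAT2, HTSeq, DESeq2, hg19 and mm10, with no role given. No label or header says how human reads were kept apart from fibroblast reads. Date-like gene names were dropped, and genes at 1 RPKM or more in at least 2 libraries were kept.

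The test was limma's (version 3.58.1, R 4.3.3), applied to log2(RPKM + 1) with a mean-variance trend, 1 mean per group over all 12 libraries, 6 residual degrees of freedom and Benjamini-Hochberg adjustment over 16042 genes; tests were two-sided with a threshold of 0.05. Changes of low genes are understated on this scale, whereas folds are ratios of mean RPKM. Whole reads were recovered from the steps of the RPKM values (within 0.02 reads) to give depth and the reads behind low genes. The fit was also run on simulated reads with a fixed spread that was not estimated from these libraries. That run does not measure the error rate in these data.

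Most genes were named by a rule: called, at 1 RPKM or more in a group, and with libraries apart. From these came the 12 largest rises, the 12 largest falls and the 4 smallest p-values of each list. The 8 largest called differences between drug conditions in each direction were added, as was a fixed set that included KLK3 and FKBP5. Markers and members that did not pass were also added. Other list members were named outside this rule, such as KCNN2, HERC3, TRPM8, PLOD2, IL1B, IGFBP2, ALDOA and LDHA. The comparison, its members and the gene lists were chosen with earlier results of these data known. Promoters came from RefSeq on GRCh38.p14, a build other than that of the notes, and were matched by symbol. Alternatives were a pseudocount of 0.1, no filter, median-of-ratios scaling, a replicate block, the coculture libraries alone and each library left out. The fibroblast samples were not analysed here, and not every gene that met the rule is described.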

Additional observations from a re-analysis of the deposited data

Results flagged for a closer look

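The difference between CRPCCAF and CCAF coculture differed between enzalutamide and DMSO for 381 genes in the higher and 653 in the lower direction, by limma's test of the difference itself at an adjusted p under 0.05. Among the genes named in the text, 43 lay in the first set and 28 in the second. The values below are differences under enzalutamide minus those under DMSO, on the log2(RPKM + 1) scale, and give no account of why they arose.

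Higher values were found for IGFBP5 (2.82), LCN2 (2.52), HMOX1 (2.31), AKAP12 (2.04), KRT20 (1.84), NMB (1.77), TRAF5 (1.61) and CCL20 (1.55). Then came IL1B (1.49), SDCBP2 (1.46), CYP26A1 (1.42), AKR1C1 (1.40), PMEPA1 (1.35), DIO3 (1.30), CXCL8 (1.25) and SRD5A3 (1.24). They were followed by ALDH1A3 (1.22), CP (1.08), GDF15 (1.06), LAMB3 (1.05), PLOD2 (1.04), VEGFA (1.03), SMAD3 (1.01) and PXDC1 (0.92). Smaller values were those of CD68 (0.87), CDKN1A (0.85), BIRC3 (0.84), NFKBIZ (0.83), FN1 (0.81), HERC3 (0.77), EGR1 (0.77) and DHRS3 (0.72). The next were CDKN1B (0.63), UGT2B17 (0.60), NFKBIA (0.54), DDIT4 (0.51), EGFR (0.50), SCD (0.45), ALDOA (0.45) and TMPRSS2 (0.39). The smallest were BAMBI (0.28), LDHA (0.26) and NDRG1 (0.22).

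Lower values were found for RRM2 (-1.995), MYBL2 (-1.80), NUSAP1 (-1.58), ESCO2 (-1.55), CDC6 (-1.55), AURKB (-1.53), KLK3 (-1.42) and MYC (-1.41). Next in that direction were KLK2 (-1.32), MKI67 (-1.31), CDK1 (-1.28), CENPN (-1.26), MMP7 (-1.23), CTGF (-1.03), MCM4 (-1.03) and CDKN2C (-0.97). Less far below 0 were VWF (-0.89), CYR61 (-0.87), KCNN2 (-0.82), ETV1 (-0.75), OAS3 (-0.63), JUN (-0.55), NOP56 (-0.54) and KLK4 (-0.53). Nearest to 0 were SRM (-0.53), FKBP5 (-0.51), NDUFB10 (-0.43) and ATP1B1 (-0.34).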

How the results depend on the processing

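Under enzalutamide, 5197 genes were called, and between 4819 and 5136 with a pseudocount of 0.1, without the filter, with median-of-ratios scaling, with the replicate block or with the coculture libraries alone; leaving out each library gave 3556 to 3839. Under DMSO, leaving out each library gave 827 to 1959 calls beside 2156 with all libraries, and for the difference between conditions 582 to 1362 beside 1034. Replicate numbers share only a number: deviations of same-numbered libraries correlated at -0.0617 to 0.0840 across pairs of groups, and with the replicate block 5136, 2013 and 992 genes were called in these 3 tests. No gene that the text names as called changed direction; among those not called, CCNE1, NQO1, SLC2A1, HK1 and CA12 changed sign near 0, as did the medians of the iron and sodium pump lists. SPRY1 and AOC1 lost their call as given above, and BNIP3 and TPI1 gained one with median-of-ratios scaling and with the coculture libraries alone. Of the list counts, 310 stayed within 1.5 times and 14 moved further, in 6 lists; the cause was not tested. List medians moved by more than their spread in 43 values and by less in 281. With 2 libraries a group, a gene that was not called was not shown to be equal, and genes with few reads in the CCAF libraries carry wide counting error.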
